A study of Mus musculus with 6 samples.

Results

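The genes described here are 10 transcription factors and targets of the integrated stress response, namely Atf4, Atf5, Atf3, Ddit3, Cebpb, Cebpg, Nupr1, Trib3, Chac1 and Stc2, taken by symbol from tables of 49585 genes. Each symbol matched a single row, and all 10 were among the 14020 genes that passed the filter on low counts. They were measured by RNA sequencing in mGB2, a mouse glioblastoma line labelled as a glioblastoma stem cell. The cells under study carried a knockout of Bcat1 (genotype label Bcat1-KO) and were compared with control cells (labelled Control in genotype and NT in the design text), with 3 libraries in each group. Bcat1 encodes the cytosolic enzyme that begins the breakdown of leucine, isoleucine and valine. All cells were untreated, adherent on matrix-coated plates in DMEM:F12 with N2, B27, EGF and FGF, and harvested at confluency. The sources used here do not say whether the knockout is 1 clone or a pool or whether replicates are separate cultures, so p-values measure the spread between these libraries, which may be technical.

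The libraries held 29543157 to 37800648 strand-matched reads. Bcat1 itself had 168 ± 11.5 CPM in Bcat1-KO cells, against 223 ± 9.26 CPM in control cells (SD over 3 libraries each, with CPM the read count scaled to library size by TMM), a count over the whole gene that does not show whether an edited exon is present. Sox2, Nes, Olig2, Egfr and Vim, markers of neural stem and glioma cells, lay between 131 and 971 CPM in every library, and of these Sox2 (log2 fold change 1.31), Olig2 (1.07) and Vim (0.29) were higher in the knockout. Prom1, another stem cell marker, averaged 0.829 CPM in Bcat1-KO cells and was at 0 in all control libraries. Of 14 markers of macrophages, fibroblasts, endothelial cells and neurons, 7 were below 0.1 CPM on average in both groups, among them Ptprc, Aif1, Col1a2, Lum and Cdh5. The fibroblast marker Col1a1 had 4.21 CPM in Bcat1-KO cells, against 17.7 CPM in control cells. Dcn, also a fibroblast marker, went the other way at a low level, with 0.405 and 0.0748 CPM. The neuronal marker Rbfox3 had 0.0719 and 33.1 CPM, Syt1 had 23.1 and 12.7 CPM, and Snap25 had 0.126 and 0.0344 CPM. The macrophage marker Cd68 had 3.02 and 3.32 CPM, and the endothelial marker Pecam1 had 0.401 and 0.374 CPM. Their part in the results below was not tested, and in bulk RNA fewer cells of a type and less RNA per cell cannot be told apart.

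The integrated stress response begins when a kinase phosphorylates the translation factor eIF2 on its alpha subunit: GCN2 (Eif2ak4) on uncharged tRNA during amino acid shortage, PERK (Eif2ak3) on misfolded protein in the endoplasmic reticulum, PKR (Eif2ak2) on double-stranded RNA and HRI (Eif2ak1) on haem shortage or mitochondrial stress. Most translation then falls, while mRNAs with suitable upstream reading frames, above all Atf4, are translated better. ATF4 protein, with C/EBP and other partners, switches on genes for amino acid synthesis, uptake and tRNA charging, and the factor CHOP (Ddit3). The measurements here are of RNA, so they cover transcription and decay of these genes and not eIF2 phosphorylation or the amount of ATF4 protein.

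ATF4 and its C/EBP partners bind composite elements known as amino acid response elements. Promoter windows of 250 bases upstream and 50 downstream of RefSeq starts (GRCm38.p6) were available for all 10 genes, and both strands were searched for the core TGATGNAAN, which reads NTTNCATCA on the other strand. The core lay in the windows of 4 of the 10 genes, Chac1, Nupr1, Atf3 and Trib3, and in those of 4.50% of the 27025 genes with a window. The Nupr1 match has the full letters ATTGCATCA, a special case of the core that 0.222% of genes held, and 0 of the 10 held the cAMP response element TGACGTCA. A match is a description of letters and not proof of a binding site, and elements outside the windows were not searched.

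The upstream 250 bases are shown for Chac1, the single member that was higher in the knockout, for Nupr1, a lower member with the full element, and for Ddit3, the member with the lowest fold change before any regional correction, whose window held no match. Capitals mark the core. The stretches are chr2:119350992-119351241 (plus strand) for Chac1, chr7:126625471-126625720 (minus strand) for Nupr1 and chr10:127290543-127290792 (plus strand) for Ddit3, each 5′ to 3′ from RefSeq.
Chac1: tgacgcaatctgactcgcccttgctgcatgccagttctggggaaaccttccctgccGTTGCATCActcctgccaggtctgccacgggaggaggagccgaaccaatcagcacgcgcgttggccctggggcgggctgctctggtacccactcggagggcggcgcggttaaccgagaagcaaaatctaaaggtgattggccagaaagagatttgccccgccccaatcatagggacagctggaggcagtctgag
Nupr1: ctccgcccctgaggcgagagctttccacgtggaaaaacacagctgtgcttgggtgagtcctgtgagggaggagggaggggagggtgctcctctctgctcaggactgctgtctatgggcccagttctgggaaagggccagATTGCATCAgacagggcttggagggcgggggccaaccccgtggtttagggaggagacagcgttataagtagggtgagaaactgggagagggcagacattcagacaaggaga
Ddit3: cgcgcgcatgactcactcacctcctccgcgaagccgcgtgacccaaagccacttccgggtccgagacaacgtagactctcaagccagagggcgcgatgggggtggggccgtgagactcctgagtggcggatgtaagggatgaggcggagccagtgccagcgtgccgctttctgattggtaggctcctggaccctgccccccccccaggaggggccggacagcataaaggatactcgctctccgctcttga

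The comparison asked whether transcripts of amino acid shortage signalling are raised when Bcat1 is targeted. They were not raised as a group: of the 10 genes, 1 was higher in the knockout (Chac1), 5 were lower (Ddit3, Cebpb, Trib3, Atf5 and Nupr1) and 4 did not pass the test (Atf4, Cebpg, Atf3 and Stc2), at an adjusted p under 0.05 in edgeR's quasi-likelihood test. Among all 14020 genes tested 62.3% passed, with 32.0% higher and 30.3% lower, so 6 of 10 is close to the share of all genes. The median log2 fold change of the 10 was -0.19, against 0.01 over all tested genes. The 2 groups of libraries stood fully apart for 5 of the 10, with 1 above and 4 below the controls, as they did for 67.7% of all tested genes (35.1% above and 32.5% below). No member changed by 2-fold or more, a size that 19.2% of tested genes reached with a call (9.76% higher and 9.43% lower).

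**Figure D1:**
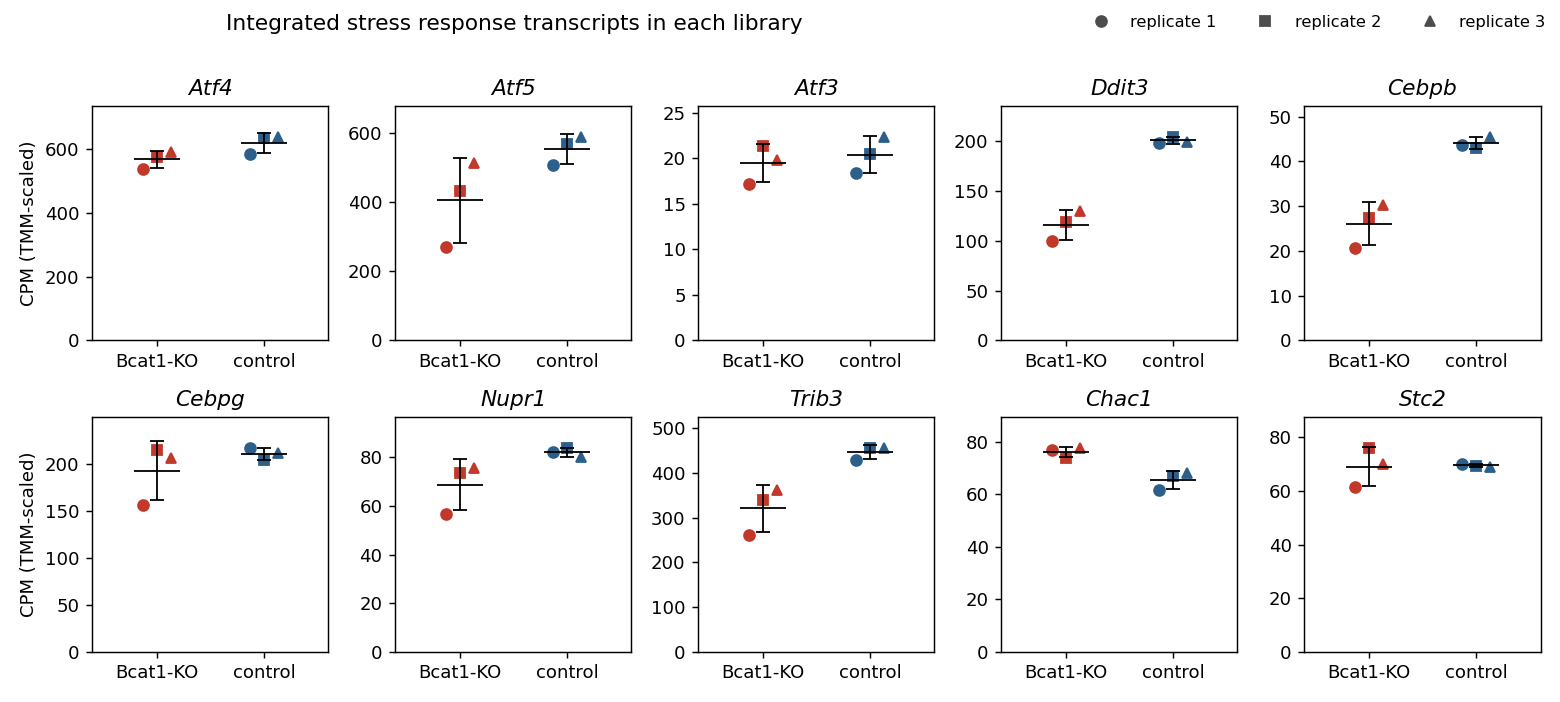
Level of each of the 10 transcripts in the 3 Bcat1-KO (red, left) and 3 control libraries (blue, right) in TMM-scaled CPM; symbols give the replicate and black bars the mean and SD. Ddit3, Cebpb, Trib3 and Nupr1 lie below the control in every knockout library, and Chac1 lies above it.

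Atf4 (ENSMUSG00000042406.7, chromosome 15 from 80255184 to 80257540, mm10) encodes the central factor of the response. It had 538, 575 and 591 CPM in the knockout libraries, against 584, 634 and 639 CPM in the control libraries. The groups overlapped, since the highest knockout library was above the lowest control library. Its log2 fold change was -0.12 (SE 0.07), which did not pass (adjusted p = 0.162, edgeR). After removing the median change of the 51 tested genes around it, a check on regional shifts, it was -0.28 (adjusted p = 0.00723, edgeR). Its 50 neighbours went both ways, with 23 higher and 14 lower. The local median was taken as fixed here and below, so adjusted p-values from this check leave out its own uncertainty. With a replicate block and a gene length offset together, the log2 fold change of Atf4 was -0.16 (adjusted p = 0.0474, edgeR).

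Atf5 (ENSMUSG00000038539.15, chromosome 7 from 44812256 to 44816658), a related factor also controlled through upstream reading frames, had 270, 432 and 511 CPM in Bcat1-KO cells, against 506, 566 and 588 CPM in control cells. Knockout replicate 1 was far below the other knockout libraries, and replicate 3 lay above the lowest control library. It differed by a log2 fold change of -0.45 (edgeR, SE 0.18, adjusted p = 0.0405). Without knockout replicate 1 it was -0.25 (adjusted p = 0.0176, edgeR), and it did not pass with DESeq2 (adjusted p = 0.133) or without control replicate 1, 2 or 3 (adjusted p = 0.0612, 0.0934 and 0.0930, edgeR).

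Atf3 (ENSMUSG00000026628.13, chromosome 1 from 191170296 to 191218039), a stress-induced factor that can repress as well as activate, was the least abundant member. It had 17.2, 21.3 and 19.8 CPM in Bcat1-KO cells, against 18.3, 20.5 and 22.4 CPM in control cells. The groups overlapped, with a log2 fold change of -0.07 (edgeR, SE 0.11, adjusted p = 0.587).

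Ddit3 (ENSMUSG00000025408.15, chromosome 10 from 127290774 to 127296288) encodes CHOP, the factor that ATF4 induces under lasting stress and that promotes cell death. It had 100, 119 and 130 CPM in Bcat1-KO cells, against 199, 205 and 199 CPM in control cells. Every knockout library was well below every control library, and the control libraries lay close together. The log2 fold change of -0.79 (edgeR, SE 0.09, adjusted p = 1.04e-05) was the steepest of the 10 in that fit, but not once regional shifts were removed.

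Genes around Ddit3 were lower as well. Of its 50 tested neighbours, between 123113244 and 128292849 on chromosome 10, 33 were lower and 4 higher, at a median log2 change of -0.48, while 30.3% of all tested genes were lower. With the median of the 51 genes, Ddit3 included (-0.49), removed, Ddit3 had a log2 fold change of -0.30 (adjusted p = 0.0114, edgeR). Handled the same way, Cebpb (-0.66), Trib3 (-0.62) and Atf5 (-0.54) were further below the control than Ddit3. The windows of the other 9 members had medians between -0.08 and 0.18. Mars, which overlaps the end of Ddit3 on the opposite strand, had a log2 fold change of -0.04 (edgeR, SE 0.07, adjusted p = 0.593), and 92.0% of the stranded reads over Ddit3 were on its own strand.

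Cebpb (ENSMUSG00000056501.3, chromosome 2 from 167688915 to 167690418), a C/EBP factor that pairs with ATF4 and CHOP, had 20.7, 27.3 and 30.2 CPM in Bcat1-KO cells, against 43.6, 43.1 and 45.5 CPM in control cells. All knockout libraries were below the control, with replicate 1 lowest. Its log2 fold change came to -0.76 (edgeR, SE 0.11, adjusted p = 0.000124). Tmem189 overlaps it on the opposite strand, and counts taken without regard to strand held 61.6% as many reads, with a log2 fold change of -0.74.

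Cebpg (ENSMUSG00000056216.9, chromosome 7 from 35046422 to 35056573), a short C/EBP protein that dimerises with ATF4, had 157, 214 and 207 CPM in Bcat1-KO cells, against 217, 204 and 211 CPM in control cells. Apart from knockout replicate 1, all libraries lay between 204 and 217 CPM. The log2 fold change was -0.13 (edgeR, SE 0.10, adjusted p = 0.288), and -0.02 (SE 0.06) without that replicate.

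Nupr1 (ENSMUSG00000030717.9, chromosome 7 from 126623249 to 126630861), a small stress-induced chromatin protein, had 56.6, 73.7 and 75.8 CPM in Bcat1-KO cells, against 82.1, 84.0 and 80.1 CPM in control cells. The groups did not overlap, although knockout replicates 2 and 3 were near the lowest control library. Its log2 fold change was -0.26 (edgeR, SE 0.10, adjusted p = 0.0379), and -0.15 (adjusted p = 0.0283, edgeR) without knockout replicate 1. It did not pass without any 1 control replicate, with an adjusted p of 0.0839, 0.0990 and 0.0561 without control replicates 1, 2 and 3, nor with the local median removed (adjusted p = 0.0684, edgeR).

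Among the targets, Trib3 and Chac1 moved in opposite directions. Trib3 (ENSMUSG00000032715.9, chromosome 2 from 152337422 to 152344032) encodes a pseudokinase that CHOP and ATF4 induce and that holds ATF4 activity back. It had 261, 340 and 362 CPM in Bcat1-KO cells, against 428, 455 and 457 CPM in control cells, with no overlap. It differed by a log2 fold change of -0.48 (edgeR, SE 0.11, adjusted p = 0.00216).

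Chac1 (ENSMUSG00000027313.3, chromosome 2 from 119351229 to 119354381) encodes an enzyme that degrades glutathione and is a standard reporter of ATF4 activity. It had 76.7, 73.9 and 77.6 CPM in Bcat1-KO cells, against 61.5, 66.9 and 67.9 CPM in control cells. The knockout libraries agreed closely and were all above the control. Its log2 fold change came to 0.22 (edgeR, SE 0.06, adjusted p = 0.0117), a 1.16-fold difference, and 0.16 (adjusted p = 0.0610, edgeR) without control replicate 1, the lowest library.

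Stc2 (ENSMUSG00000020303.2, chromosome 11 from 31357307 to 31370074), a secreted glycoprotein induced by ATF4, had 61.3, 76.1 and 69.9 CPM in Bcat1-KO cells, against 70.2, 69.2 and 69.1 CPM in control cells. The control libraries lay inside the knockout range, and the log2 fold change was -0.01 (edgeR, SE 0.08, adjusted p = 0.935). It was 0.05 without knockout replicate 1, so no direction can be given.

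**Figure D2:**
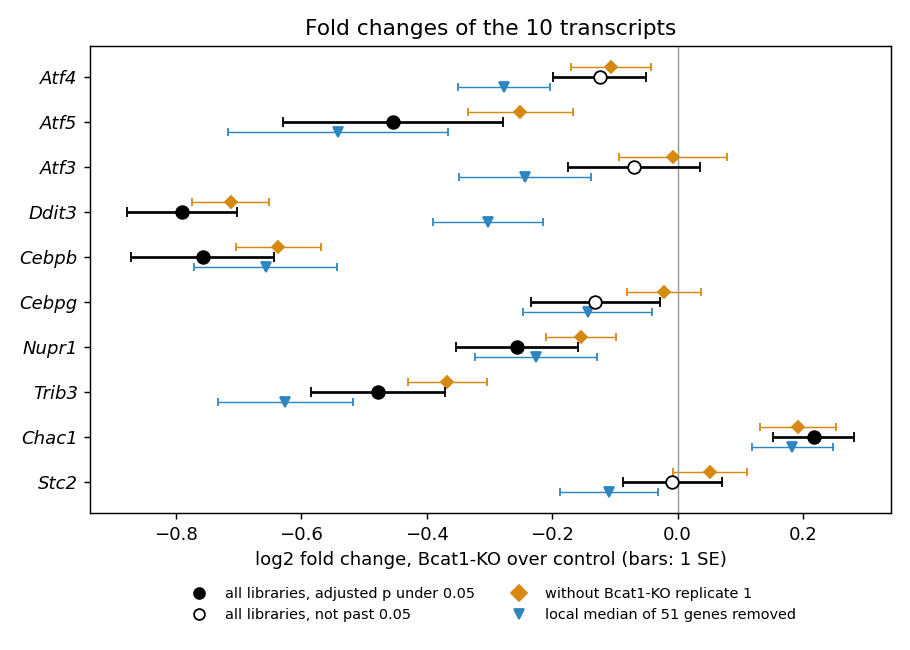
Log2 fold change of Bcat1-KO over control with 1 SE for the 10 transcripts; black circles are the fit to all libraries (filled where the adjusted p was under 0.05), orange diamonds leave out knockout replicate 1 and blue triangles remove the local median of 51 genes. Ddit3 is at -0.79, -0.71 and -0.30, and Chac1 is on the positive side at 0.22, 0.19 and 0.18.

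Knockout replicate 1 stood apart from the other knockout libraries across all genes, with a chi-square per gene of 31.4 and 33.2 against replicates 2 and 3, which differed from each other by 12.6. Control replicate 1 stood apart within its own group too, at smaller values. It differed by 12.8 from control replicate 2 and nearly as much from control replicate 3, while those differed from each other by 4.01. Knockout replicate 1 was the lowest of the 3 knockout libraries for 38.9% and the highest for 40.8% of all tested genes. Among the 10 genes it was the lowest for 9, all but Chac1. The 10 genes took 0.158%, 0.199% and 0.207% of the reads in knockout replicates 1, 2 and 3, and 0.220%, 0.232% and 0.234% in control replicates 1, 2 and 3. For Atf5 the SD was 123 CPM in Bcat1-KO cells, against 42.7 CPM in control cells, and for Trib3 53.4 and 15.8 CPM. Without knockout replicate 1, 5 of the 10 genes were lower and 1 higher, the counts found with it.

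**Figure D3:**
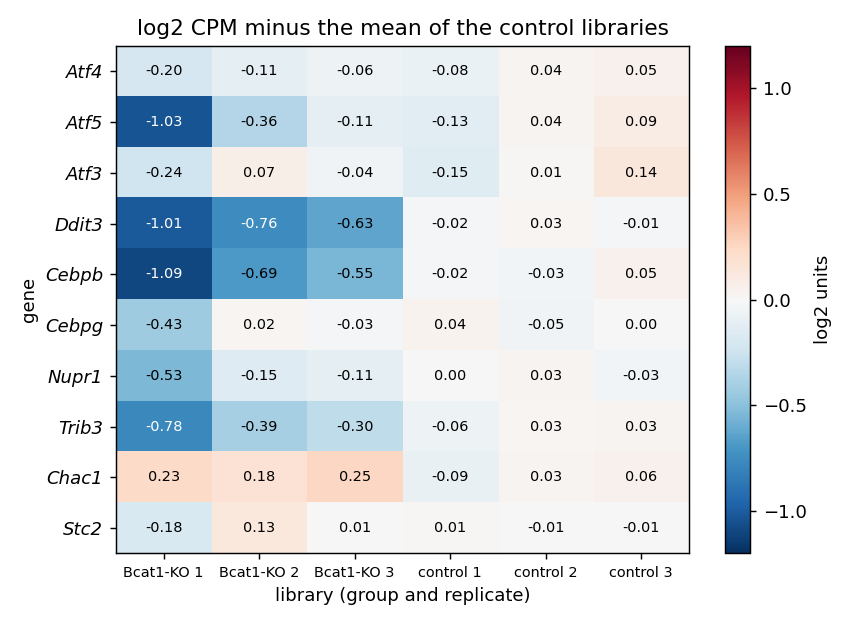
Log2 CPM of each gene in each library minus the mean of the control libraries (log2 units, blue lower and red higher). The Bcat1-KO replicate 1 column is the bluest, at -1.09 for Cebpb, -1.03 for Atf5 and -1.01 for Ddit3, while the Chac1 row is red in all 3 knockout libraries.

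Per length, in the deposited TPM, the order of the 10 levels was the same in both groups. Atf4 averaged 1080 ± 69.6 TPM in Bcat1-KO cells, against 1133 ± 50.9 TPM in control cells, followed by Atf5 with 666 ± 211 and 876 ± 64.6 TPM and Trib3 with 495 ± 89.8 and 663 ± 20.2 TPM. Ddit3 averaged 223 ± 32.1 TPM in Bcat1-KO cells, against 370 ± 3.05 TPM in control cells, and Chac1 152 ± 3.70 and 126 ± 6.11 TPM. Cebpg, Nupr1, Cebpb, Stc2 and Atf3 came next, with Atf3 at 29.6 ± 3.67 TPM in Bcat1-KO cells, against 29.9 ± 2.90 TPM in control cells. Neighbours in this order whose library ranges overlapped were Atf5 with Trib3, Cebpg with Nupr1 and Cebpb with Stc2 in the knockout, and Chac1 with Cebpg in the control. Atf4 was thus the most abundant of the 10 in both groups.

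Over the 6 libraries, the log2 CPM of Trib3 (Pearson r = 0.91), Atf5 (r = 0.91) and Cebpb (r = 0.87) ran most like that of Atf4 among the members, and Chac1 ran the other way (r = -0.48). Of the related genes, leaving out those with a mean log2 CPM under 0, Nfe2l2 (r = 0.92), Ppp1r15a (r = 0.91) and Sars (r = 0.91) were most alike. These values describe 6 points that share the group difference and the low knockout replicate 1, and carry no test.

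The genes upstream of the response were mixed. Counts for this and each list below are to be read beside 32.0% higher and 30.3% lower among all tested genes. Of 12 eIF2 alpha kinases, activators and phosphatase subunits, 4 were higher (2 without control replicate 1) and 3 lower. Eif2ak4, the amino acid sensor, had 38.4, 35.7 and 34.0 CPM in Bcat1-KO cells, against 32.9, 31.8 and 31.0 CPM in control cells, all knockout libraries above the control, with a log2 fold change of 0.17 that did not pass (adjusted p = 0.0555, edgeR); with a replicate block it passed (adjusted p = 0.0469), and with the local median removed it was -0.0024. Eif2ak3 had 40.0, 28.7 and 29.5 CPM in Bcat1-KO cells, against 29.7, 26.6 and 26.3 CPM in control cells, which overlap (log2 fold change 0.25, adjusted p = 0.0881, and 0.0365 with a replicate block, edgeR). Eif2ak2 was higher (log2 fold change 0.41, or 0.15 and no longer past the test with the local median removed), as was Oma1 (0.76), the mitochondrial protease that passes stress to HRI. Eif2ak1, the gene for HRI, was higher too (0.23, adjusted p = 0.0105, edgeR), with every knockout library above the control. Gcn1l1, on the same list, was lower (-0.39, adjusted p = 0.00971, edgeR), although the groups overlapped.

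Ppp1r15a encodes GADD34, the stress-induced subunit that directs dephosphorylation of eIF2 and is itself a target of the response. It had 86.4, 144 and 159 CPM in Bcat1-KO cells, against 192, 206 and 213 CPM in control cells, every knockout library below the control and replicate 1 lowest. The log2 fold change was -0.65 (edgeR, SE 0.17, adjusted p = 0.00531), and -0.41 (adjusted p = 0.0564, edgeR) with the local median removed. Dnajc3, an inhibitor of PERK, was lower as well (log2 fold change -0.95), while the constitutive subunit gene Ppp1r15b, the most abundant of the list, did not pass (0.04, or 0.37 and past the test with the local median removed). Of 12 genes for eIF2, eIF2B and reinitiation factors, 3 were higher and 3 lower. The number higher was 6 with limma-trend on log2 TPM, 5 with a replicate block or without knockout replicate 1, and 1 with the local median removed. They ran from Eif2b2 at a log2 fold change of -0.74 to Eif2b4 at 0.47, the second of which was 0.05 and did not pass with the local median removed.

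Of 9 bZIP partners of ATF4 and CHOP, 5 were lower and 2 higher, beside 30.3% lower and 32.0% higher among all tested genes. Junb fell most (log2 fold change -2.39), followed by Jund (-1.21) and Fos (-1.10), and Jun was higher (0.49). Of 8 tested family relatives of the 10 genes, 2 were higher and 1 lower (3 without knockout replicate 1). Trib1 was higher (log2 fold change 0.92), Trib2 also (0.23, or -0.01 with the local median removed), and Cebpa was lower (-0.56).

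The amino acid targets of ATF4 did not move one way. Of 14 genes for amino acid synthesis and folate carbon supply, 4 were higher and 3 lower, at a median log2 change of 0.02. Asns, asparagine synthetase and the classic reporter of amino acid shortage, had 678, 652 and 653 CPM in Bcat1-KO cells, against 613, 647 and 675 CPM in control cells. Those ranges overlap, and the log2 fold change was 0.04 (edgeR, SE 0.07, adjusted p = 0.679), although it was -0.28 (adjusted p = 0.00590, edgeR) with the local median removed. The serine pathway gene Phgdh did not pass either (log2 fold change -0.08, or 0.19 with the local median removed, adjusted p = 0.0635, edgeR), whereas Psat1 was higher (0.40), as was the proline enzyme gene Pycr1 (0.98). Lower in the knockout were Cbs, which makes cystathionine (-1.60), and the mitochondrial folate genes Mthfd1l (-0.67) and Aldh1l2 (-0.64). With the local median removed Psat1 (0.14) and Aldh1l2 (-0.22) did not pass.

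Of 9 amino acid transporter targets, 6 were higher and 0 lower in edgeR with TMM scaling (0 at an unadjusted p under 0.05, and 1 with DESeq2, with upper-quartile scaling or with the local median removed), at a median log2 change of 0.23, where 32.0% of all tested genes were higher. Without knockout replicate 3, 3 were higher. Slc7a11, the cystine importer, had 122, 145 and 154 CPM in Bcat1-KO cells, against 81.2, 80.7 and 87.6 CPM in control cells, with no overlap (log2 fold change 0.75, SE 0.09, adjusted p = 1.37e-05, edgeR). Slc1a5, a glutamine and neutral amino acid transporter gene, rose most (1.76). Slc1a4 (0.39) and Slc7a1 (0.32) were higher too, and the leucine transporter gene Slc7a5, the most abundant, did not pass (0.09). With the local median removed Slc7a5 did pass (0.57) and Slc7a1 did not (0.24), nor did Slc7a1 without knockout replicate 3 or control replicate 1 or 2 (0.20, 0.27 and 0.29). Of 13 tRNA charging genes, 2 were higher and 4 lower, from Aars at -0.51, Iars at -0.42 and Sars at -0.29 to Gars at 0.36. Without knockout replicate 1, 4 were higher, and without knockout replicate 2 or any control replicate, 1 was. With the local median removed 1 was lower, and Aars (-0.10), Iars (-0.08) and Sars (-0.17) did not pass. Knockout replicate 1 was the lowest knockout library for 7 of the 9 transporter genes and 11 of the 13 tRNA charging genes.

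Among genes further down the response more were lower than higher. Of 13 other ATF4 and CHOP targets, 7 were lower and 1 higher (2 without knockout replicate 1, and 0 without knockout replicate 3 or any control replicate), at a median log2 change of -0.62, beside 30.3% lower among all tested genes. The hormone gene Fgf21 had 9.42, 8.06 and 8.78 CPM in Bcat1-KO cells, against 31.3, 36.8 and 36.3 CPM in control cells, without overlap (log2 fold change -1.99, SE 0.10, adjusted p = 8.07e-09, edgeR). Gdf15, a stress-induced cytokine gene, had 2.58, 3.69 and 3.93 CPM in Bcat1-KO cells, against 9.48, 8.80 and 9.05 CPM in control cells (log2 fold change -1.42, adjusted p = 1.09e-05, edgeR). Herpud1, of protein disposal in the endoplasmic reticulum (-1.14), the death receptor gene Tnfrsf10b (-1.04) and the mTORC1 inhibitor gene Ddit4 (-0.73) were lower as well. Sesn2, a leucine sensor induced by ATF4, overlapped between groups (log2 fold change 0.14, adjusted p = 0.229, and 0.23 with adjusted p = 0.00668 without knockout replicate 1, edgeR).

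The other arms of the endoplasmic reticulum stress response were lower as a rule. Of 16 ATF6 and XBP1 arm genes, 13 were lower and 1 higher (0 without control replicate 3), beside 30.3% lower among all tested genes, and their median log2 fold change was -0.39. The chaperone gene Hspa5 had 489, 480 and 516 CPM in Bcat1-KO cells, against 836, 876 and 854 CPM in control cells, clearly apart (log2 fold change -0.79, SE 0.07, adjusted p = 1.48e-06, edgeR). Xbp1 (-1.19), Sel1l (-1.03), Hsp90b1 (-1.01) and Calr (-0.96) changed most. Of 8 mitochondrial chaperones and proteases, 4 were higher, among them Afg3l2 (0.52), Clpx (0.47, or 0.09 and not past the test with the local median removed) and Hspd1 (0.43), and Lonp1 was lower (-0.53).

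**Figure D4:**
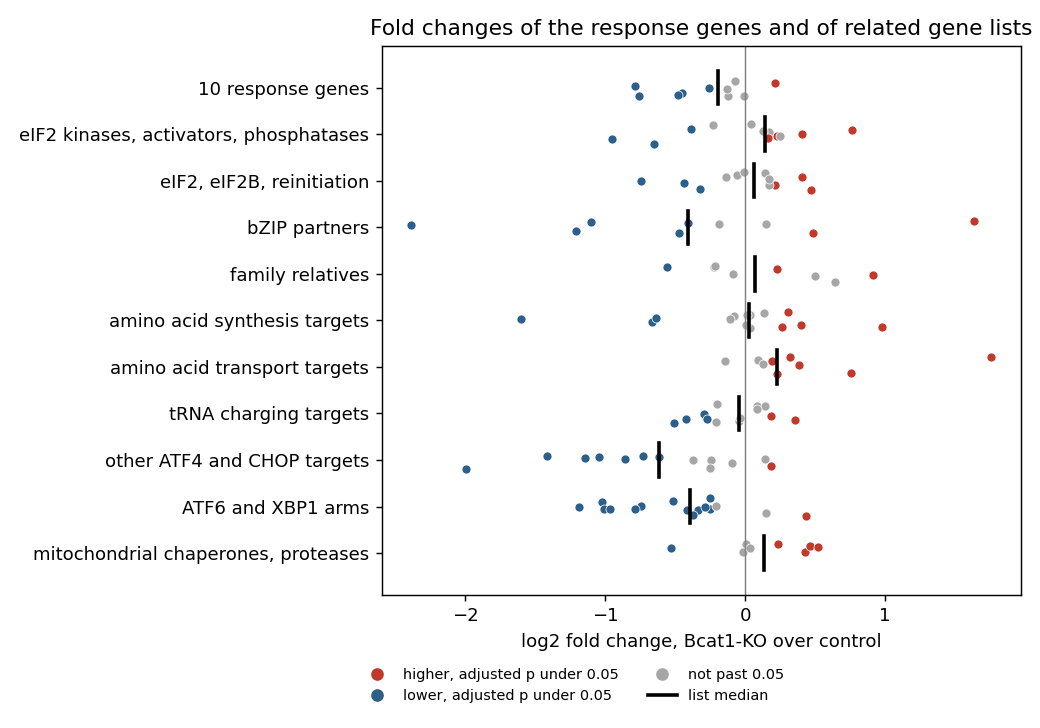
Log2 fold changes of Bcat1-KO over control for the 10 response genes and for 10 lists of related genes; each point is a gene, coloured by its call, and black bars are list medians. The medians run from -0.62 for other ATF4 and CHOP targets to 0.23 for the amino acid transporters, and most points of the ATF6 and XBP1 arms are lower in the knockout.

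Of 115 related genes, 91 had a RefSeq promoter window, and 15 of those (16.5%) held the core searched for above. The core was found for 5 of 9 tRNA charging genes, 3 of 12 amino acid synthesis genes and 0 of 13 ATF6 and XBP1 arm genes with a window. Among the 15 genes that held it 5 were higher, 4 lower and 6 did not pass. Among the related genes with a window but no core, 18 were higher, 31 lower and 27 did not pass. Over all tested genes 32.0% were higher and 30.3% lower. Of the genes with the core, Slc7a11, Slc1a4 and Pycr1 were among the higher ones, and Fgf21, Herpud1, Aars and Iars were lower.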

How the data were processed

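RNA-seq libraries of 3 Bcat1-KO and 3 control samples were prepared with a stranded poly(A) kit, per the labels' protocols. The submitters' processing notes name STAR 2.5.3a, featureCounts and mm10. Which gene annotation was used is unknown here. The deposited tables give raw read counts per gene by strand, of which the reverse strand held 96.4% to 96.5%, and the authors' TPM, scaled per library over all genes.

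Reverse-strand counts were filtered with edgeR 4.0.16's expression filter (14020 genes kept, 0.0511% of reads removed), scaled by TMM and compared by its quasi-likelihood test without covariates. Benjamini-Hochberg adjustment ran over all genes tested, with a threshold of 0.05. The test was tried first on simulated counts in which few genes differed. Many genes differed here, so that trial does not bear on scaling or error rates in this comparison. Replicate pairs differed beyond counting noise (chi-square per gene of 4.01 to 33.2), so none was treated as a duplicate.

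Genes named outside the 10 are, per list, up to 4 called genes with the largest change and the most abundant one, plus a few fixed by name. Only some are described. Dnajb9, Edem1, Eif2ak1 and Gcn1l1 were named outside this rule, and their values in the alternative fits are not given. The 10 genes and all lists were chosen with earlier results of these data known. Alternatives used DESeq2 1.42.0, limma 3.58.1, other scalings, filters, offsets and left-out replicates. Promoters are from RefSeq. R 4.3.3 and Python 3.11.15 were used.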

Additional observations from a re-analysis of the deposited data

Results flagged for a closer look

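Reads on the strand opposite to the gene, which the comparisons do not use, were scaled to the strand-matched total of each library, without TMM. So scaled, they were above the control in every knockout library at 2 of the 10 genes, Atf4 and Atf5, and below it at 1, Cebpb. Over all 14020 tested genes the shares were 10.6% above and 8.45% below. Over Atf4 they averaged 0.860 CPM in the knockout, with 40, 27 and 27 reads there and 7, 20 and 14 reads in the control. Over Atf5 they averaged 7.07 CPM in the knockout, with 261, 260 and 255 reads there and 168, 224 and 188 reads in the control. The Atf5 gap was narrow, at 6.88 CPM in the lowest knockout library and 6.68 CPM in the highest control library. Nup62 lies opposite to Atf5 and was higher in the knockout (log2 fold change 0.23, adjusted p = 0.0132, edgeR); its part in these reads was not tested.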

How the results depend on the processing

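Of 190 alternative values for the 10 genes, 165 kept direction and call. The test against a 1.5-fold change left 1564 higher and 1481 lower of all genes, 0 and 1 of the 10 (Ddit3) and 5 and 16 of the related genes, with unchanged log2 fold changes for Atf5 (-0.45), Chac1 (0.22), Trib3 (-0.48), Cebpb (-0.76) and Nupr1 (-0.26), which no longer passed. With limma-trend on log2(TPM + 1) and log2(TPM + 0.1) 3 of the 10 were lower in each, as Atf5 (-0.45 in both) and Nupr1 (-0.21 in both) did not pass; Atf5 also failed with DESeq2 (-0.47), and Nupr1 (-0.23) with the local median removed, which made Atf4 pass (-0.28). Leaving out 1 replicate gave 3 to 5 lower and 0 to 1 higher genes, with log2 fold changes of -0.67 to -0.25 for Atf5, -0.35 to -0.15 for Nupr1, 0.16 to 0.23 for Chac1 and -0.092 to 0.052 for Stc2. The 3 lower genes were found without control replicate 1, 2 or 3, and the 0 without control replicate 1. Stc2 turned positive with limma-trend (0.039 in both), the gene length offset (0.0097), with that and a replicate block (0.0054), and without Bcat1-KO replicate 1.

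Other named genes that changed sign were Trib2 (-0.011), Phgdh (0.19), Asns (-0.28) and Eif2ak4 (-0.0024) with the local median removed, and Nars (0.011) and Hspa9 (0.032) with either limma-trend fit. With 1 replicate left out Ppp1r15b lay between -0.021 (without Bcat1-KO replicate 3) and 0.066, Nars between -0.12 and 0.056 and Hspa9 between -0.068 and 0.038 (both positive without Bcat1-KO replicate 1), and Asns between -0.011 (without control replicate 1) and 0.059, with -0.0017 without Bcat1-KO replicate 1. Of the counts per related list 328 kept to within 1.5 times and 52 did not. The cause of these shifts was not tested.

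Deviations of same-numbered libraries from their group means correlated at r = -0.051, -0.073 and 0.16 for replicates 1, 2 and 3. Only replicate 3 of the knockout correlated best with its own number. Deviations from a mean of 3 libraries constrain each other, so these values cannot settle whether same-numbered samples were handled together. With a replicate block 5 of the 10 were lower and 1 higher, and with the length offset added 6 were lower, Atf4 (-0.16) among them. The lowest count of these genes in a library was 577 reads, and the effect of depth was not tested.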
